A study of Mus musculus with 35 samples.

Results

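Trimethylation of histone H3 at lysine 4 (H3K4me3) was present without any acetylation of lysine 27 (H3K27ac) at 3850 merged regions of the mouse genome. The regions were selected on their measured peaks. H3K4me3 peaks of 10 libraries were merged wherever they overlapped, which gave 58183 regions, and 20324 of these had a peak in all 10 libraries. The 3850 regions were those of the 20324 that overlapped no peak in any of the 10 H3K27ac libraries, and they made up 6.62% of all merged regions and 18.9% of the constant ones. Presence of H3K4me3 and absence of H3K27ac in them are therefore descriptions and not findings, whereas monomethylation (H3K4me1), position, nearby genes and sequence were not used in the choice.

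Chromatin immunoprecipitation sequencing had been carried out on bone marrow of C57BL/6 mice. The 5 groups compared were HSPC from WT animals, from Npm1c, from Flt3-ITD and from DM animals, together with WT neutrophils. Each had 2 biological replicates for each of 3 marks, per the series design. HSPC are stem and progenitor cells enriched with a kit that removes cells carrying lineage markers, so they are a mixed population, and the neutrophils were likewise taken with an isolation kit. Npm1c is the cytoplasmic mutant form of nucleophosmin and Flt3-ITD the internal tandem duplication of the FLT3 receptor, both known from acute myeloid leukaemia. DM is read as the double mutant of both, which the labels do not spell out, and they give neither the Cre driver, the age nor the number of mice. No treatment was named, and every group shared the strain and the tissue.

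H3K4me3 marks the start sites of transcribed genes, and H3K27ac marks promoters and enhancers that are active. At genes that are switched off but held in a CG-rich, unmethylated state, H3K4me3 can occur without acetylation. Many such genes encode regulators of embryonic development and are bound by Polycomb complexes, which set H3K27me3, the partner of H3K4me3 in bivalent promoters. H3K27me3 and RNA were not measured in the data used here, so whether a region was bivalent or a gene silent was not tested. H3K4me1 is abundant at enhancers and at the flanks of promoters, and is usually low at the start of a strongly transcribed gene.

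Sequences of promoters are shown because their median CG count and the share holding some motifs differed, with overlap, between kinds of region described below. They are the 250 bases before a listed transcription start, 5′ to 3′, from RefSeq on GRCm38.p6, the assembly of mm10. In the first 6, each CG dinucleotide is in capitals. Wnt6 (a secreted WNT ligand), Six2 (a homeobox factor of kidney progenitors), Foxa1 (a forkhead pioneer factor of endoderm) and Atoh1 (a neuronal and intestinal basic helix-loop-helix factor) had H3K4me1 inside their region in all 10 libraries. Peg12 (an imprinted, paternally expressed gene) and Srp54a (a subunit of the signal recognition particle) had it in none. Rps18, a ribosomal protein gene whose H3K4me3 region was acetylated in all 10 libraries, is shown for contrast, with the ETS-type motif in capitals.
Wnt6 (chr1:74771642-74771891, plus strand): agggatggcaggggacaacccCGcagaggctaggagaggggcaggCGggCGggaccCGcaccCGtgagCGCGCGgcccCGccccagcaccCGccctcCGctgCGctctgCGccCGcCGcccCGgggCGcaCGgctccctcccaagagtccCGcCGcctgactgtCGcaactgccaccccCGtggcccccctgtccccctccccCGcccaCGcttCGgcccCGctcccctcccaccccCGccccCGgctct
Six2 (chr17:85688255-85688504, minus strand): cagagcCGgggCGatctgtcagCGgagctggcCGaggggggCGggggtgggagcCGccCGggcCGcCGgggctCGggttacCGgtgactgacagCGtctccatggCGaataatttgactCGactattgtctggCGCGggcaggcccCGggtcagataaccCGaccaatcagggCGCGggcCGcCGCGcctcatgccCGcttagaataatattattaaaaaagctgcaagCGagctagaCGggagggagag
Foxa1 (chr12:57546112-57546361, minus strand): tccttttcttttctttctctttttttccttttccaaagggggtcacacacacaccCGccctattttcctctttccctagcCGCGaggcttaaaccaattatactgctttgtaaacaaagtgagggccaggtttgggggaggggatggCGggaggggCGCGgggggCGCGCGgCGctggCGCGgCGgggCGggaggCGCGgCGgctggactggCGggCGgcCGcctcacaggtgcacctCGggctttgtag
Atoh1 (chr6:64728875-64729124, plus strand): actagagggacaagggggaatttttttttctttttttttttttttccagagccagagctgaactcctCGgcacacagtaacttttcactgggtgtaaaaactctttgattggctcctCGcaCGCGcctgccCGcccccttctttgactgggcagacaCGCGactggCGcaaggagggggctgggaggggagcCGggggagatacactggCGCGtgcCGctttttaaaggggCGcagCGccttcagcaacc
Peg12 (chr7:62464511-62464760, minus strand): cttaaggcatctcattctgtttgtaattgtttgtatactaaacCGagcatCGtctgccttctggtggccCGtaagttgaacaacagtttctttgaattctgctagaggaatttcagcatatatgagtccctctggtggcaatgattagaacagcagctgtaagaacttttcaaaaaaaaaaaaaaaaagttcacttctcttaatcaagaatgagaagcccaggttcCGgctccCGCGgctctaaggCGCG
Srp54a (chr12:55080246-55080495, plus strand): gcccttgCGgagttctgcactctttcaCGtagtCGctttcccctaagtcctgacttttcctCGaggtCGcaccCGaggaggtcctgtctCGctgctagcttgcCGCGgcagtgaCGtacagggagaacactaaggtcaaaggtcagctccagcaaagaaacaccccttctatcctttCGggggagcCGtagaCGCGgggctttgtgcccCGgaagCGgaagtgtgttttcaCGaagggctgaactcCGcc
Rps18 (chr17:33955666-33955915, minus strand): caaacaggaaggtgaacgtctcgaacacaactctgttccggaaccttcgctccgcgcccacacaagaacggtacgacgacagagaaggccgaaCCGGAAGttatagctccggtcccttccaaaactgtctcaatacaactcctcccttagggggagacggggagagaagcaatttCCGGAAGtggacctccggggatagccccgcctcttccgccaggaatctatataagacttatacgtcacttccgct
Within these 250 bases Wnt6 held 28 CG dinucleotides, Six2 26, Foxa1 21 and Atoh1 14, and Peg12 held 8 and Srp54a 18. These are picked examples, and single promoters of the 2 kinds overlapped. Hoxa10 held 7 and Eomes 8, although both had H3K4me1 inside their region in all 10 libraries. The ETS-type motif CCGGAAG was found once in Srp54a, in none of the other 5 selected promoters shown, and at 2 places in Rps18.

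MicroRNA genes were also found in these regions, and mature sequences are shown for families with several loci or a shared seed. Capitals mark the seed, bases 2 to 8, written with U as in the RefSeq table.
mmu-miR-9-5p: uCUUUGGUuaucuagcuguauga
mmu-miR-9-3p: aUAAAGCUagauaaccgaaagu
mmu-miR-34b-5p: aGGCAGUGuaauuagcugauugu
mmu-miR-449c-5p: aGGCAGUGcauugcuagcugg
All 3 loci of miR-9, a regulator of neural progenitors, had their hairpin inside a selected region. They were Mir9-1 (chr3:88215598-88215686), Mir9-2 (chr13:83738814-83738885) and Mir9-3 (chr7:79505264-79505353), each on the plus strand, and each gives the same miR-9-5p. H3K4me1 lay inside the Mir9-1 and Mir9-3 regions in all 10 libraries and inside the Mir9-2 region in 9. miR-34b-5p and miR-449c-5p, members of a family active in multiciliated cells, share the seed GGCAGUG. The hairpin of Mir34b lay inside its region, that of Mir34c 12 bp outside the same region, and that of Mir449c 212 bp outside one. Of 1005 hairpin genes listed, 17 (1.69%) lay inside a selected region and 20 (1.99%) inside a constant region acetylated in 1 to 9 libraries. Constant regions acetylated in all 10 held 62 (6.17%), and regions that were not constant held 50 (4.98%). In that order the classes hold 3850, 7482, 8992 and 37859 regions. The shares are therefore not rates per region and do not rank the classes.

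Peak lists carried no read counts, so depth is unknown and an absent peak means only that none was called. The length of the H3K4me1 lists ran from 102927 to 131205 peaks, that of the H3K4me3 lists from 30310 to 39320 and that of the H3K27ac lists from 21709 to 30150. Npm1c HSPC replicate 1 had the shortest H3K4me1 list and WT HSPC replicate 2 the longest. As a check of the labels, H3K27ac peaks in both libraries were found at 10 of 10 neutrophil marker genes in neutrophils and at 1 or 2 in the HSPC groups. Of 9 HSPC markers, 8 had them in WT, Npm1c and Flt3-ITD HSPC, 7 in DM HSPC and 3 in neutrophils. H3K4me3 in both libraries was found at 10 of 10 neutrophil markers in WT HSPC but at 5 in each mutant HSPC group. In WT HSPC, H3K27ac was also found at 4 of 6 erythroid markers, against 1 in DM HSPC, and at 1 of 5 B cell, 2 of 5 T and NK cell, 2 of 5 monocyte and 1 of 5 stromal markers. How far other cells in the preparations contribute to the regions was not tested.

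Regions close to the selection limits were common. Another 743 regions lacked H3K27ac but had H3K4me3 in 9 of 10 libraries, and 922 had H3K4me3 in all 10 and H3K27ac in 1. H3K4me1 was present in all 10 libraries at 67.7% of the selected regions, 52.5% of the former and 76.5% of the latter. The smallest gap between a selected region and an H3K27ac peak was 46 bp. Among the constant regions, 4202 had no H3K27ac in the 8 HSPC libraries, and 261 of them were acetylated in both neutrophil libraries and 91 in 1. The remainder were the 3850 regions described here.

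The regions were compact. Their median width was 1152 bp, close to the 1139 bp of constant regions acetylated in all 10 libraries, and 3818 (99.2%) held a single H3K4me3 peak in every library. Since each H3K4me3 peak is 1000 bp wide, region width mainly measures how far the peaks of different libraries were shifted. The widest region assigned to a gene spanned 3639 bp at Adamts1, a secreted metalloprotease. Others among the widest lay at Sfmbt2 (2935 bp), a Polycomb-group gene imprinted in placenta, Skor1 (2894 bp), a neuronal corepressor, Wnt10b (2852 bp), a WNT ligand, Atoh1 (2608 bp) and Meis2 (2429 bp), a homeobox cofactor. A region of 3570 bp and another of 2532 bp lay inside Sfi1 on chromosome 11, where 4 selected regions were found. The Sfi1 locus is known for sequence present in several copies, and whether reads map there uniquely was not tested.

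Distance to acetylated chromatin varied over several orders of magnitude. The median gap to the nearest H3K27ac peak of any library was 20419 bp. It was at most 1 kb for 80 regions (2.08%), at most 5 kb for 687 (17.8%), and over 100 kb for 507 (13.2%). The farthest was the start of Adgrl3, a latrophilin adhesion receptor of neurons, at 3559178 bp, followed by Slitrk5 (3272239 bp), Ncam2 (2622294 bp) and Pcdh17 (2298643 bp), all of them membrane proteins of neuronal contacts. By library, H3K27ac within 5 kb was found at 7.97% and 8.36% of the regions in WT HSPC and at 9.35% and 9.82% in neutrophils. It was found at 10.7% and 12.7% in Npm1c, 9.3% and 10.7% in Flt3-ITD and 11.1% and 8.94% in DM HSPC. Both WT HSPC libraries lay below all others, and their H3K27ac lists, with 22065 and 21709 peaks, were among the 3 shortest. The part of list length in this difference was not tested.

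Starts of protein-coding genes were less common in these regions than in constant regions acetylated in all 10 libraries, and more common than over all merged regions. A listed start of a coding gene lay within 1 kb of 1259 regions (32.7%), and another 432 (11.2%) lay at the edge of a coding gene for which no start is listed. The interior of coding genes held 1042 regions (27.1%), and 658 (17.1%) had no gene within 1 kb. Of constant regions acetylated in all 10 libraries, 69.4% lay at a coding start, 9.31% inside a gene and 3.85% away from genes. Those acetylated in 1 to 9 libraries were distributed more like the selected ones, with 29.6% at a coding start and 33.8% inside genes. Regions that were not constant had 5.85% at a coding start, and all merged regions together 20.5%.

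**Figure D1:**
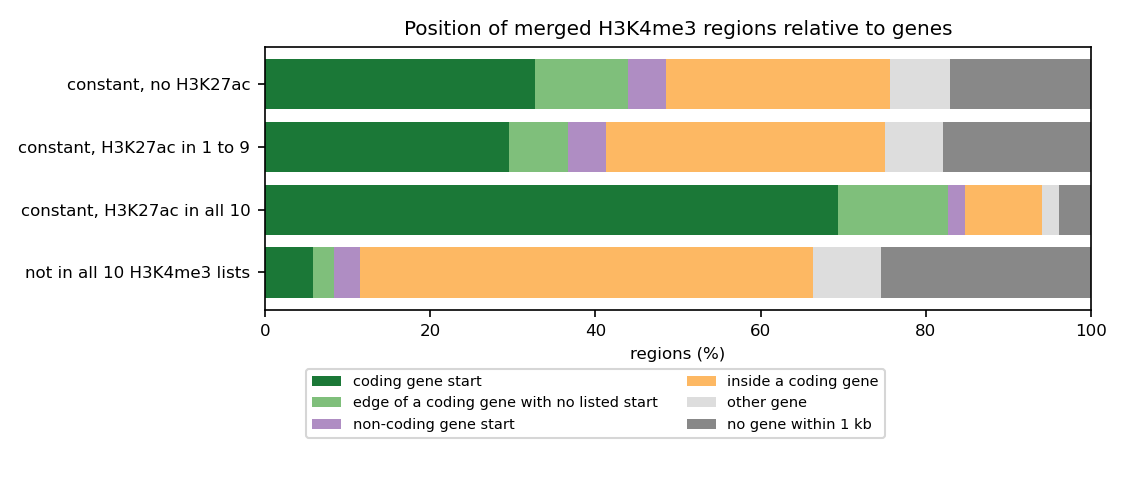
Share of merged H3K4me3 regions (%) by position relative to RefSeq genes, 1 bar for each kind of region. The selected regions in the top bar have 32.7% at coding starts, against 69.4% for regions acetylated in all 10 libraries.

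About as many genes of embryonic patterning and cell fate had such a region as did not. Of 321 genes in 6 developmental lists, 158 (49.2%) had a selected region at a listed start, or over a gene with no listed start. The same rule gave 1883 of 21887 protein-coding genes (8.6%). Of those 1883 genes the developmental ones made up 8.39%, whereas the 6 lists hold 321 of the 21887 coding genes. In the acetylated class the order was the opposite, and 3 of the 321 genes had a constant region acetylated in all 10 libraries, against 38.4% of all coding genes. Lists were chosen with earlier results known and were not tested for enrichment.

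Homeobox genes outside the HOX clusters, which encode DNA-binding factors of organ and neuron identity, had a selected region at 48 of 98. Examples were Six2 (1958 bp wide, 192257 bp from the nearest H3K27ac), Emx2 (1506 bp wide, 85629 bp away) and Nkx6-2 (1495 bp wide, 17022 bp away). None of the 98 was acetylated in all 10 libraries.

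Of the 39 HOX genes, 13 had a selected region: Hoxa10, Hoxa11 and Hoxa13, Hoxb1, Hoxb2, Hoxb6 and Hoxb7, Hoxc6 and Hoxc9, and Hoxd8, Hoxd9, Hoxd11 and Hoxd13. Of the others, 10 had a constant region with H3K27ac in at least 1 library and no selected one, 14 had only regions that were not constant, and 2 had none. The Hoxa11 region (chr6:52244681-52246730) lay 9604 bp from H3K27ac and that of Hoxa10 (chr6:52239575-52240955) 4498 bp.

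Forkhead genes had a selected region at 15 of 27, among them Foxa1 (1790 bp wide), Foxl2 (1649 bp), an ovarian factor, and Foxf2 (1499 bp), a factor of gut mesenchyme. The list of PAX, SOX, T-box and ZIC genes had them at 16 of 37, including Eomes (2215 bp), which acts in mesoderm and in T cells, Tbx1 (1865 bp), a factor of pharyngeal development, and Zic5 (1541 bp). Basic helix-loop-helix, GATA and related developmental factors had them at 32 of 57, with Gli3, a hedgehog-pathway factor (1744 bp), beside Atoh1.

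Secreted ligands of the WNT, BMP, FGF and hedgehog pathways and their antagonists had a selected region at 34 of 63. Wnt10b lay 2775 bp from H3K27ac, Fgf11 6742 bp, Wnt6 43143 bp, and Nog, an antagonist of BMP, 200145 bp. Neuronal channels and receptors had one at 27 of 76, such as Htr1b (a serotonin receptor, 1894 bp wide) and Slc32a1 (the vesicular transporter of GABA, 1349 bp).

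Imprinted genes, which are expressed from the allele of one parent, had a selected region at 15 of 31. They included the shared start of Peg10 and Sgce (2969 bp wide), Nnat (1559 bp), Rasgrf1 (1512 bp) and Igf2 (1355 bp). The germline list had 1 of 33, the recombinase gene Dmc1, and 23 of its genes had no H3K4me3 region at all. Neither the 20 housekeeping genes nor the 9 HSPC markers had any, and 19 of the 20 housekeeping genes were acetylated in all 10 libraries.

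Among markers of other cell types, a region was found at 1 of 10 neutrophil genes (Mmp9, a gelatinase of neutrophil granules), 1 of 5 T and NK cell genes (Cd4, a T cell coreceptor) and 2 of 5 stromal genes (Col1a1 and Cxcl12). None was found at 6 erythroid, 5 B cell and 5 monocyte genes. The Mmp9 region lay 2958 bp from an H3K27ac peak. Mmp9 itself had H3K27ac in both neutrophil libraries, and so did the stromal gene Col1a1. A selected region therefore does not mean that its whole gene lacked acetylation.

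**Figure D2:**
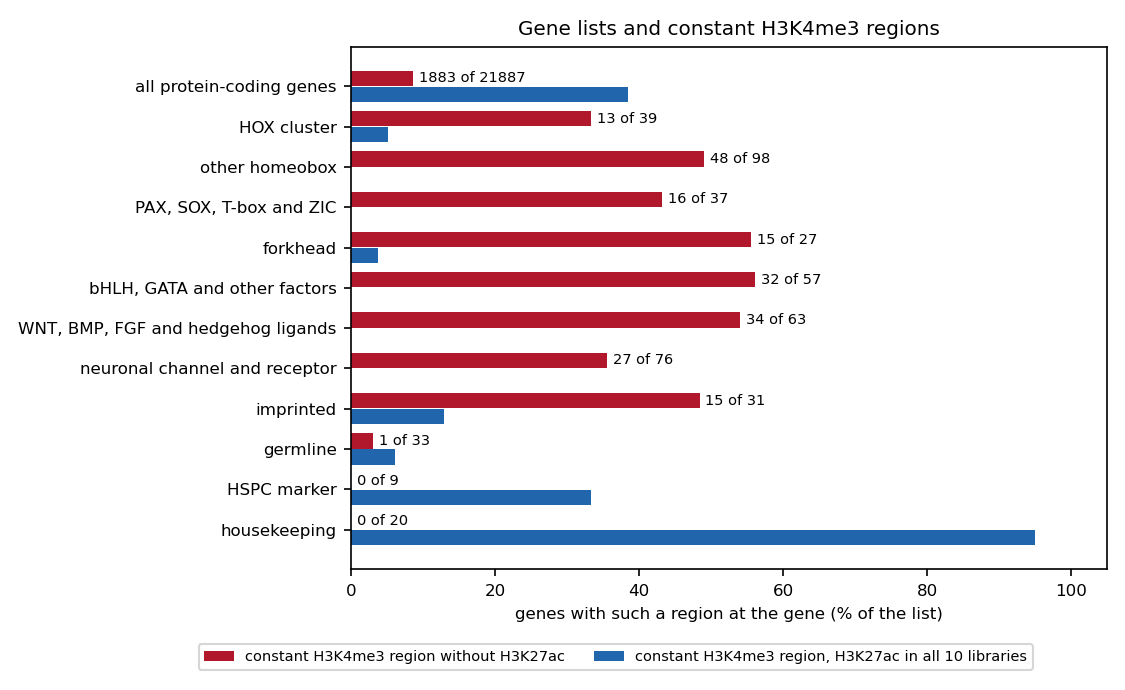
Share of genes (%) in each list with a constant H3K4me3 region without H3K27ac (red, with counts) or with one acetylated in all 10 libraries (blue). The 6 developmental lists lie at 33.3% to 56.1% for the former, and housekeeping genes at 0.

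Some selected regions lay in groups, and 743 (19.3%) were within 10 kb of another. The same share is not given for other kinds of region, so whether the selected ones were grouped more closely was not tested. Runs of 5 were found at Lhx9 (chr1:138830979-138857478), a homeobox gene, and across Hoxa10, Hoxa11 and Hoxa13 (chr6:52239575-52261229). The other runs of 5 lay at Keap1 and S1pr5 and at Tubg2, Plekhh3, Ccr10 and Cntnap1. Of 12 runs of 4, 6 lay at transcription factor genes of development, namely Dlx1 and Dlx2, Hoxb6 to Hoxb8, Lbx1, Foxc1, Nkx2-3 and Sp9, and 1 at Cbx8, which encodes a Polycomb subunit. The other 5 lay at Sfi1, at Sbf2 and Adm, at Gcat, H1f0 and Galr3, around Tradd, Fbxl8, Hsf4 and Nol3, and at a place on chromosome 13 with no coding gene.

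Promoters of the selected regions had a CG count between those of the other constant classes and held an ETS-type motif less often than promoters acetylated in all 10 libraries. Counts are over 32851 promoters of 300 bases, 250 before and 50 after the start, of which 1500 started inside a selected region. The median number of CG dinucleotides was 20 in the selected regions, 23 in constant regions acetylated in all 10 libraries and 18 in those acetylated in 1 to 9. It was 9 in regions that were not constant and 3 where no H3K4me3 region held the start. The median GC content was 64% in the selected regions and 62.3% in the fully acetylated ones.

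CCGGAAG, the core bound by many ETS factors, was searched on both strands. It was found in 75 of the 1500 promoters (5%), in 25.6% of the 7495 promoters acetylated in all 10 libraries and in 8.86% of all promoters. The share was 7.96% in constant regions acetylated in 1 to 9 libraries and 4.65% in regions that were not constant. Where no H3K4me3 region held the start it was 3.12%, so a low share was not particular to the selected regions. Among promoters with 15 to 25 CG dinucleotides, the selected and the fully acetylated ones both had a median of 20. Their shares were 3.98% and 29.1%. In the same range, promoters acetylated in 1 to 9 libraries had 9.58% and all promoters 19.2%. TGACGTCA, the CRE motif of CREB-type factors, was found in 1.8% of the selected and 4.03% of the fully acetylated promoters, and in 1.79% of all promoters. GGGCGG, the Sp/KLF box, was found in 69% and 69.3%, against 35.7% of all promoters. CCAAT was found in 30.7% and 36.7% (37.4% of all), and TATAAA in 7.07% and 5% (13.6% of all). Several starts of 1 gene share sequence, and a match of letters is not evidence of binding.

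**Figure D3:**
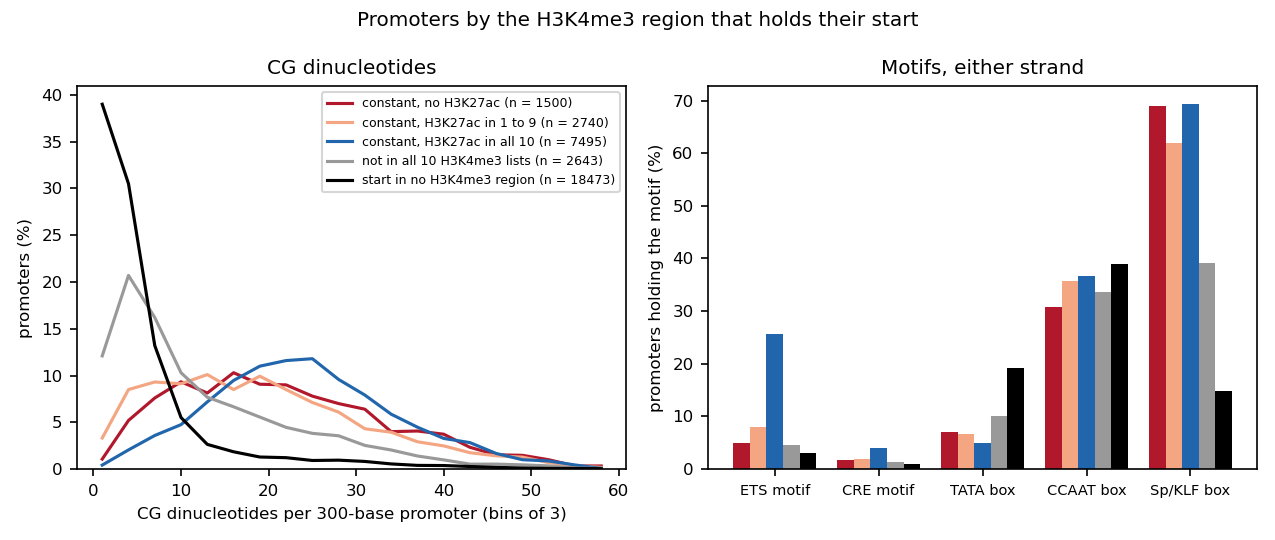
Left, number of CG dinucleotides per 300-base promoter, as the share of promoters (%) in each bin of 3. Right, share of promoters (%) holding each motif on either strand. Selected regions (red) overlap the fully acetylated ones (blue) in CG content but hold the ETS motif in 5% against 25.6%.

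H3K4me1, which was not used in the selection, was present inside most of the regions. A peak lay inside the region in 93.8% and 94.8% of them in WT HSPC, 84.3% and 95.2% in Npm1c, 93.1% and 91.9% in Flt3-ITD, 90.5% and 91% in DM HSPC, and 87.2% and 85% in neutrophils. Constant regions acetylated in all 10 libraries had it in 69.6% to 75.6%. In each of the 10 libraries the share was higher in the selected regions, and the 2 ranges did not overlap. Constant regions acetylated in 1 to 9 libraries had 88.9% to 93%, a range that overlapped that of the selected regions. Npm1c HSPC replicate 1, the library with the shortest H3K4me1 list, was lower than its partner, and the 2 Npm1c libraries held the lowest and the highest share of the 10.

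**Figure D4:**
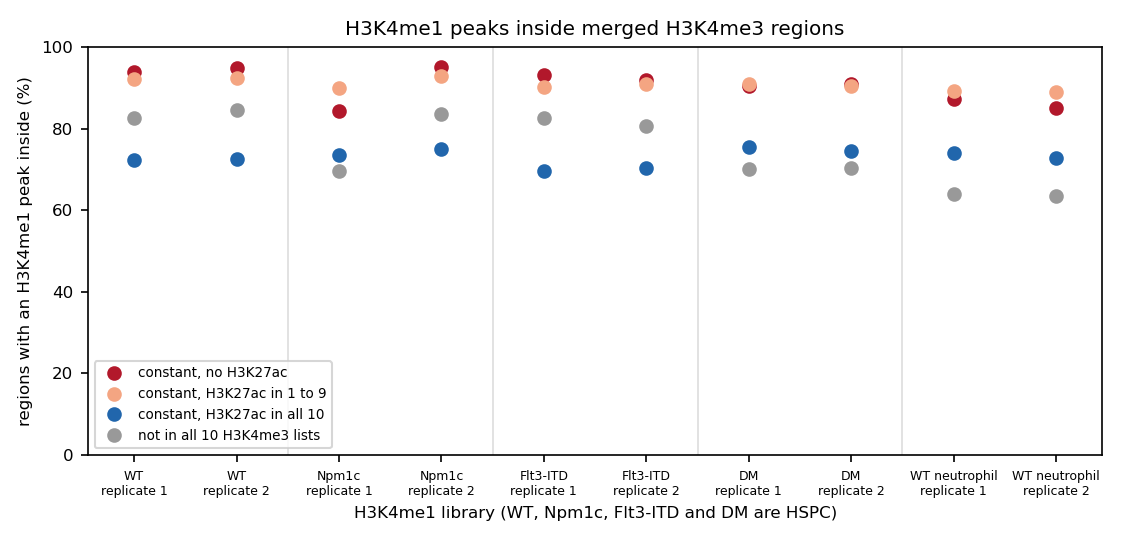
Share of regions (%) with an H3K4me1 peak inside, 1 column of points for each H3K4me1 library and 1 colour for each kind of region. Selected regions (red) lie at 84.3% to 95.2%, above fully acetylated regions (blue, 69.6% to 75.6%) in every library.

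The 177 selected regions at genes of the 6 developmental lists had H3K4me1 in all 10 libraries at 120 and in none at 0. Of all 3850 selected regions, 67.7% had it in all 10 and 2.03% in none. Both counts are near these shares and are not read as a trait of the developmental regions. By library, the share of developmental regions with H3K4me1 was 98.9% and 98.3% in WT HSPC and 87.6% and 81.9% in neutrophils. The other 3673 regions had 93.6% and 94.6% in WT HSPC and 87.2% and 85.2% in neutrophils. The developmental regions were thus higher in both WT HSPC libraries, whereas in neutrophils they were higher in 1 library and lower in the other. Npm1c HSPC had 87.6% and 98.3%, again with the lower value in replicate 1.

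At 93 regions H3K4me1 was absent in both neutrophil libraries and present in all 8 HSPC libraries, which is 2.42% of the selected regions against 4.32% of all merged regions. For WT HSPC the same pattern was met by 1 selected region (0.0825% of all regions), for Npm1c by 4 (0.194%), for Flt3-ITD by 2 (0.11%) and for DM by 11 (0.856%). As shares of the selected regions these are 0.026%, 0.104%, 0.0519% and 0.286%, each below that of all regions. For neutrophils and DM HSPC this was not particular to the selected regions. Constant regions acetylated in 1 to 9 libraries had 2.09% and 0.548%, and those acetylated in all 10 had 2.46% and 0.189%. Regions that were not constant had 5.4% and 1.13%. For WT, Npm1c and Flt3-ITD HSPC the selected share was below both other constant kinds, on 1, 4 and 2 regions. Of the 93, 9 were developmental regions, which is 5.08% of the 177 and near the 4.32% of all merged regions. Among them were those of Lhx8, Lhx1 and Alx1 (homeobox factors), Tbx3 (T-box), Scrt2 (a neuronal factor), Nr2f1 (a nuclear receptor) and Wnt3 (a ligand), which were named after their values were seen.

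No H3K4me1 peak lay inside 78 regions (2.03%) in any library, while 2605 (67.7%) had it in all 10. Of all merged regions 3.94% had none and 45.1% had it in all 10, and of constant regions acetylated in all 10 libraries 8.9% and 46.8%. Of the 78, 33 lay at a coding start. Zinc finger genes Zfp976, Zfp935, Zfp729a, Zfp738 and Zfp995, which encode DNA-binding proteins and lie in clusters of related genes, were among them, as were Peg12, Rtl8b, a gene derived from a retrotransposon, and H2-T23, a non-classical MHC class I gene. Of all 397 genes named Zfp and a number, 24 (6.05%) had a selected region, against 8.6% of all coding genes. A constant region acetylated in all 10 libraries was found at 193 of them (48.6%), against 38.4% of all coding genes. The genes named here from the 78 regions were picked after the values were seen. Several, including Srp54a and the zinc finger genes, have close copies elsewhere in the genome, and whether reads were lost there was not tested.

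Promoters in the 78 regions differed from the other selected ones in sequence. The 42 promoters starting there had a median of 10 CG dinucleotides and 53% GC, against 20 and 64% for the 1002 promoters with H3K4me1 in all 10 libraries. CCGGAAG was found in 10 of the 42 (23.8%), in 6.8% of the 456 with H3K4me1 in 1 to 9 libraries and in 3.39% of those with it in all 10. CCAAT was found in 59.5% of the 42 and in 30% of the 1002. The 42 belong to 37 genes, some of them copies of each other, so they are not independent observations.

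Changes of H3K4me1 were tested with limma on the base pairs under H3K4me1 peaks in each region and 2 kb on either side, as log2(bp + 500), against WT HSPC. Of the selected regions, 3782 had H3K4me1 in at least 2 libraries of that window and were tested among 56924 windows of all merged regions. A window was called at an adjusted p (Benjamini-Hochberg, all windows) under 0.05. Most windows hold 1 or 2 peaks of 1000 bp, so a call usually means that 1 peak more or less was called in both libraries. The spread of such windows is close to 0, and small p-values come from that. All 4 comparisons share the WT HSPC libraries.

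In Npm1c HSPC, 10 selected windows rose and 25 fell, or 0.264% and 0.661% of those tested, against 0.476% and 0.989% of all windows. In Flt3-ITD HSPC 26 rose and 31 fell (0.687% and 0.82%), against 1.06% and 1.35% of all windows. In DM HSPC 47 rose and 73 fell (1.24% and 1.93%), against 1.48% and 6.46%. In neutrophils 70 rose and 174 fell (1.85% and 4.6%), against 3.14% and 10.3%. Unadjusted p-values under 0.05 were found at 135, 192, 303 and 471 selected windows in that order. The share called was below that of all windows in each comparison and direction. Falls in constant regions acetylated in all 10 libraries were at 1.86% in DM HSPC and 3.6% in neutrophils. In those acetylated in 1 to 9 libraries they were at 2.45% and 4.42%. Among constant regions in neutrophils, the selected windows thus had the highest share of falls. They also had the lowest share of rises (1.85%, against 4.09% with acetylation in 1 to 9 libraries and 2.7% in all 10). Regions that were not constant had falls at 8.87% and 13.7%, far above all constant kinds.

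These counts moved with the libraries and with scaling. Centring each library on its median shifted the median of all windows by 0.13 in Npm1c, 0.02 in Flt3-ITD, 0.21 in DM HSPC and 0.21 in neutrophils on the log2 scale. It then gave 6 rises and 2 falls in Npm1c, 18 and 20 in Flt3-ITD, 77 and 37 in DM HSPC and 107 and 122 in neutrophils. Relative to the median window, falls no longer outnumbered rises among the selected windows in Npm1c and DM HSPC. Over all windows, centring gave 178 rises and 187 falls in Npm1c, 455 and 561 in Flt3-ITD, 1355 and 3143 in DM HSPC and 2674 and 5206 in neutrophils, with more falls than rises in each. Leaving out Npm1c replicate 2 raised the Npm1c count from 35 to 371, and leaving out Npm1c replicate 1, WT replicate 1 or WT replicate 2 gave 86, 108 and 101. Without WT replicate 1 or 2, or Flt3-ITD replicate 1 or 2, the Flt3-ITD count of 57 became 130, 119, 134 and 141. The DM count of 120 became 202 and 190 without DM replicate 1 and 2, and the neutrophil count of 244 became 376 without neutrophil replicate 1. In these fits the lone sample of a group is assumed to vary like the other groups.

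**Figure D5:**
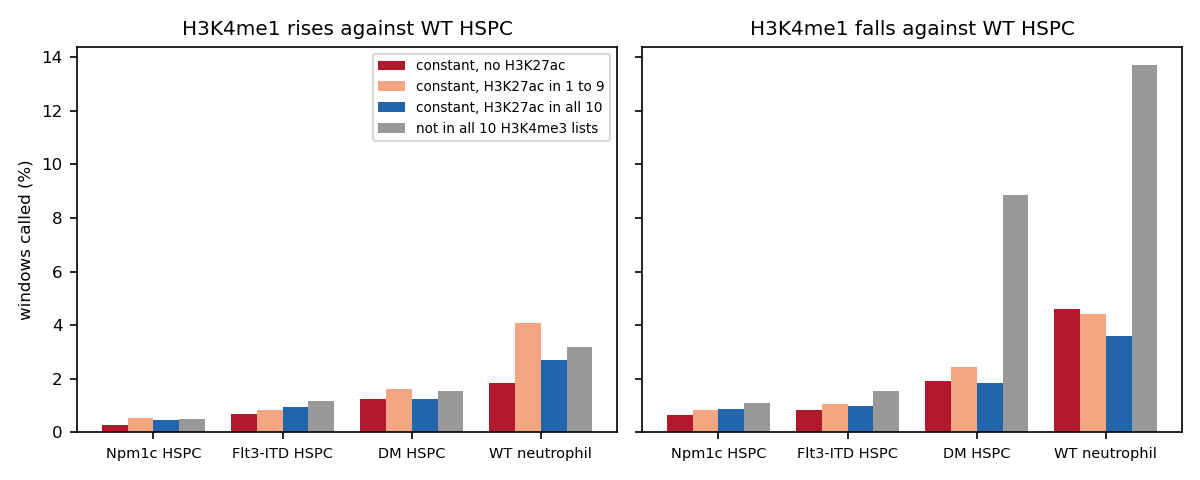
Share of windows (%) called as rising (left) or falling (right) in H3K4me1 against WT HSPC, by kind of region, for each of the other 4 groups of 2 libraries. Selected regions (red) stay at or below 4.6%, and falls in regions not constant reach 13.7% in neutrophils.

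Windows of a pair of selected regions held 1 more H3K4me1 peak in all mutant groups. At Epas1, which encodes the hypoxia-inducible factor HIF-2α, the window (around chr17:86752921-86754231) held 1 and 1 kb of H3K4me1 in WT HSPC, 2 kb in each of the 6 mutant libraries and 1 and 1 kb in neutrophils. The groups did not overlap, and the log2 difference was 0.74 in each mutant (limma adjusted p = 2.76e-07 in Npm1c, 1.53e-07 in Flt3-ITD and 5.75e-08 in DM HSPC, SE 0.0091). At the window shared by Pde1b, a phosphodiesterase gene, and Nckap1l, which encodes a haematopoietic subunit of the WAVE actin-regulating complex, H3K4me1 covered 1 and 1 kb in WT, 2 and 2 kb in Npm1c, 1.95 and 2 kb in Flt3-ITD, 2 and 2 kb in DM HSPC, and 1 and 0.95 kb in neutrophils. The log2 difference was 0.74 in Npm1c, 0.72 in Flt3-ITD and 0.74 in DM HSPC (limma adjusted p = 1.25e-05, 8.38e-06 and 3.06e-06).

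Gains in a single genotype were also seen. The window of Fgf2, a growth factor, held 2 and 2 kb in Npm1c HSPC and 1 kb in each of the other 8 libraries (log2 difference 0.74, limma adjusted p = 4.55e-08). That of Jag2, a Notch ligand, held 2 and 2 kb in Flt3-ITD HSPC and 1 kb in each of the others (0.74, limma adjusted p = 2.35e-08). That of Nfe2l3, a transcription factor, held 2.87 and 2.82 kb in DM HSPC and 1 kb in each of the others (1.16, limma adjusted p = 6.78e-09). In each case all the other libraries were level, so the 2 libraries of 1 group stood apart. Differences between genotypes themselves were not tested.

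Losses concerned single peaks in the same way. Fgfr1, an FGF receptor, had 2.86 and 2 kb in WT HSPC and 1 kb in each of the other 8 libraries, a fall of 0.95 on the log2 scale in Npm1c and Flt3-ITD HSPC (limma adjusted p = 0.036 and 0.0235). The WT libraries differed from each other, and both calls were lost when only the 2 groups compared were fitted (limma adjusted p = 0.54 and 0.36). S1pr5, a sphingosine-1-phosphate receptor of lymphocytes, had 2 and 2 kb in WT, 1 and 1 kb in Npm1c, 2 and 2 kb in Flt3-ITD, 1 and 1 kb in DM HSPC and 2.79 and 2.75 kb in neutrophils. It fell by 0.74 in Npm1c HSPC (limma adjusted p = 7.63e-07, and 0.0792 with centred libraries). Inside the region alone, without flanks, the S1pr5 difference was -0.0078 (limma adjusted p = 1). Tert, the catalytic subunit of telomerase, had 2 and 2 kb in WT, 1.78 and 2 kb in Npm1c HSPC and 1 kb in each of the remaining 6 libraries, and fell by 0.74 in Flt3-ITD HSPC (limma adjusted p = 0.000291). In DM HSPC and neutrophils, falls were also called at Fgfr1 (limma adjusted p = 0.0086 and 0.0053) and Tert (0.00012 and 6.9e-05). S1pr5 was also called as falling in DM HSPC and as rising in neutrophils (limma adjusted p = 1.8e-07 and 2.9e-06). These further calls are left out of the counts of other fits below.

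Of 15 HOX windows tested, 3 were called in any comparison, at Hoxa10 and at a neighbouring pair of Hoxb7 regions. The Hoxb7 pair was named after its values were seen. Of all windows, 1.48% rose in DM HSPC, and 0.989% and 10.3% fell in Npm1c HSPC and neutrophils. The share of all windows called in any comparison is not given, so the 3 calls are not read as a result about HOX genes. The Hoxa10 window held 2 and 1.46 kb in DM HSPC and 1 kb in each of the other 8 libraries (log2 difference 0.56, SE 0.11, limma adjusted p = 0.0332). This call was lost without WT replicate 1 or 2 (limma adjusted p = 0.139 and 0.138), with the replicate block (0.0574) and with only WT and DM HSPC fitted (0.307), and without flanks the difference was -0.46 (0.332). The Hoxb7 window around chr11:96284080-96285175 held 1.86 and 1.88 kb in WT HSPC, 0.989 and 0.94 kb in Npm1c, 2 and 1.89 kb in Flt3-ITD, 2 and 2 kb in DM HSPC, and 0.932 and 0.927 kb in neutrophils. Npm1c HSPC and neutrophils thus lay below the other groups without overlap. It fell by 0.69 in Npm1c HSPC and by 0.73 in neutrophils (limma adjusted p = 7.31e-05 and 8.01e-06). The other Hoxb7 window, around chr11:96286221-96287333, overlaps it and fell by 0.68 in both (limma adjusted p = 0.000123 and 1.75e-05). With centred libraries both Npm1c calls at Hoxb7 were lost (limma adjusted p = 0.1095 and 0.135).

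Some windows held no H3K4me1 in DM HSPC or in neutrophils. Zfp112, a zinc finger gene, had 0 kb in both DM libraries and 1 kb in each of the other 8 (limma adjusted p = 8.23e-11). Eva1a had 0 kb in both DM and both neutrophil libraries and 1 kb in each of the other 6 (limma adjusted p = 8.23e-11 for DM). No fold is given where a group is at 0.

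Tmem98, which encodes a membrane protein, had 2 and 2 kb in WT HSPC and 0 kb in both DM and both neutrophil libraries. Npm1c HSPC had 0 and 1 kb and Flt3-ITD 1 and 1 kb, so WT stood above every other library. Pcdh19, a protocadherin on the X chromosome, had 2 and 2.06 kb in WT HSPC, 0 and 1.18 kb in Npm1c, 1 and 1 kb in Flt3-ITD, and 0 kb in both DM and both neutrophil libraries. Its neutrophil fall had a limma adjusted p of 0.0429, and that of Tmem98 0.0299. With any 1 library of the 2 groups left out, both calls were lost, with limma adjusted p from 0.116 to 0.165.

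Gains in neutrophils included the shared window of Eif4e3 and Gpr27, which held 2.49 and 2.59 kb there and 1 kb in each HSPC library (log2 difference 1.02, limma adjusted p = 9.45e-08). The window of Nat8f4 held 0.605 and 0.81 kb in neutrophils and 0 kb in all 8 HSPC libraries (limma adjusted p = 0.000132), although the region itself had no H3K4me1 in any library. Many of these calls needed the flanks of the region. Without the 2 kb on each side, 6 of the named region and comparison pairs kept their call, namely Fgfr1 in Npm1c and in Flt3-ITD HSPC, Zfp112 in DM HSPC, Tmem98 in neutrophils, and the first Hoxb7 region in Npm1c HSPC and neutrophils. Another 16 lost it and 5 changed sign without being called, among these the gains at Epas1, Pde1b with Nckap1l, Fgf2, Jag2 and Nfe2l3 and the losses at S1pr5, Tert and Eva1a.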

How the data were processed

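H3K4me1, H3K4me3 and H3K27ac were profiled in 5 cell groups, 2 libraries each. The submitters' processing notes name Bowtie2 2.1.0, Picard, HOMER, MACS2 and the build mm10, with no role. The deposited files hold peak coordinates per library, made with HOMER for both H3K4 marks and MACS2 for H3K27ac per the file names, with no score or count. Calling settings were not given in the sources used here. All but 13 of 1503150 HOMER peaks are 1000 bp wide. Peaks off chromosomes 1 to 19, X and Y (395 of 1755874) and 5 inputs were not used.

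Intervals were merged and overlapped with code in Python 3.11.15, NumPy 2.4.6 and pandas 2.3.3, checked against base-by-base counts. Figures were drawn with matplotlib 3.10.9. Genes came from RefSeq on GRCm38.p6; starts were listed for 17492 of 21887 protein-coding genes, the others were matched by span. Windows were fitted in R 4.3.3 by limma 3.58.1 with a mean-variance trend, no scaling and all 5 groups together. The fit was also run on simulated data. Those values were continuous, unlike the stepwise peak lengths of the real windows, so that run cannot vouch for the calls.

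Members and lists were chosen with earlier results of these data known. Named were the 12 widest regions at a gene, up to 4 per gene list, up to 3 rises and 3 falls per comparison whose 4 library differences shared a sign, up to 4 with H3K4me1 in no and in all libraries, and the 4 farthest from H3K27ac; clone names were left out, and some genes that met the rule are not reported here.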

Additional observations from a re-analysis of the deposited data

How the results depend on the processing

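The number of regions stayed between 3770 and 4772 under every alternative except one: HSPC libraries alone gave 5890. Merging peaks up to 100 bp apart gave 3860, an overlap of at least 250 bp 4376, counting H3K27ac within 1 kb 3770, and requiring H3K27ac in 2 libraries 4772; leaving out 1 library gave 3884 to 4269. At least 97.9% of the 3850 regions were found again each time. A stricter calling threshold was not run, since the files hold no score.

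H3K4me1 calls depended on the fit. In Npm1c HSPC, 35 calls became 13 without extension, 8 with centring, 85 with only the 2 groups in the fit and 86 to 371 with 1 library left out. In Flt3-ITD HSPC, 57 became 27 without extension, 146 with 2 groups and 119 to 141 with 1 library left out. In DM HSPC, 120 became 285 with 2 groups and 166 to 202 with 1 library left out, and in neutrophils 244 became 451 and 266 to 376. With the replicate number as a block, the counts were 32, 53, 110 and 225; correlations of replicate deviations between groups ran from -0.0934 to 0.0576, so the numbers gave no sign of pairing. Of 317 recomputed values of named genes, 259 kept direction and call, 53 lost the call and 5 changed sign, all 5 without extension: Hoxa10 (-0.46, DM), Kctd15 (0.044, Flt3-ITD), Kif26a (-0.23, Flt3-ITD), Nfe2l3 (-0.0081, DM) and Eif4e3 with Gpr27 (-0.49, neutrophils). Apart from the construction of each alternative, the cause was not tested. Depth is unknown, so absent peaks set no upper limit.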
